A study of Rattus norvegicus with 6 samples.

Results

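The genes described here encode the machinery of oxidative phosphorylation in the rat ovary: subunits of the 4 respiratory complexes and the ATP synthase, with a few genes that share their names. They were taken from a short-oligonucleotide Affymetrix rat array as every probe set whose annotation gave exactly 1 gene symbol beginning with Nduf, Sdha to Sdhd, Uqcr, Cox4 to Cox8, Cyc1, Cycs or Atp5. The rule found 102 of the array's 8799 probe sets, for 56 genes, and used no measured value. Another 7 probe sets carried several symbols, at least 1 of them of this kind, and were left out. Of the 56 genes, 50 encode subunits: 24 of complex I, 1 of complex II, 4 of complex III, 12 of complex IV (Ndufa4 among them, now counted with that complex) and 9 of complex V. The other 6 are Ndufaf3 and Sdhaf2, which help to assemble complexes I and II, Cox7a2l, a factor of respiratory supercomplexes, Atp5if1, the inhibitor of the ATP synthase, Ndufa4l2, a paralogue of Ndufa4, and the pseudogene Cox6c-ps1. No probe set with 1 symbol was named for Cycs, Sdhb, Sdhc, Sdhd, Cox7a1 or Cox7a2.

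RNA came from whole ovaries of female rats in 3 groups with 2 arrays each: P0, taken on the day of birth, P4, taken 4 days after birth, and cultured, removed at P0 and then kept for 7 days in organ culture on floating filters. The labels give no strain and no genotype. Each array measured a separate RNA pool of about 20 ovaries, and the culture medium was DMEM with Ham's F-12 with bovine serum albumin, Albumax, transferrin, insulin, ascorbic acid and antibiotics. The series text also mentions a progesterone treatment of cultured ovaries that no sample label gives, so the cultured arrays are described as labelled, as replicates of 1 condition. The study's title places these stages in the assembly of primordial follicles and their early development.

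The respiratory chain passes electrons from NADH (complex I) and succinate (complex II) through complex III and cytochrome c to oxygen at complex IV, and pumps protons whose return drives ATP synthesis at complex V. A few core subunits of complexes I, III, IV and V are made from the mitochondrial genome, and all others, including those of this array's 56 genes, from nuclear genes whose promoters often hold sites for the factors NRF1 and GABP (NRF-2, of the ETS family). Oocytes hold many mitochondria, inherited by the embryo, and granulosa and theca cells need them for steroid synthesis.

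Promoters of 4 of these genes are shown as the 250 bases before the annotated start in RefSeq's rat assembly GRCr8, read 5′ to 3′ on the gene's strand. Ndufb1 (chr6:126888865-126889114, minus strand) and Ndufab1 (chr1:186089337-186089586, minus strand) are given because they had the largest P4 increases of the set. Cox5b (chr9:46417587-46417836, plus strand) and Atp5po (chr11:44657484-44657733, minus strand) are given because they carry the ETS core CCGGAAG and the palindromic consensus site of NRF1, which stand in capitals.
Ndufb1: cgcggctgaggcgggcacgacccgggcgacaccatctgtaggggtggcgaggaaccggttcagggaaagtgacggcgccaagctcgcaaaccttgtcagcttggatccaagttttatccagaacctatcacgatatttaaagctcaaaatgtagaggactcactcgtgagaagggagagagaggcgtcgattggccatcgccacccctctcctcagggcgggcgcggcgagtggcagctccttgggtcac
Ndufab1: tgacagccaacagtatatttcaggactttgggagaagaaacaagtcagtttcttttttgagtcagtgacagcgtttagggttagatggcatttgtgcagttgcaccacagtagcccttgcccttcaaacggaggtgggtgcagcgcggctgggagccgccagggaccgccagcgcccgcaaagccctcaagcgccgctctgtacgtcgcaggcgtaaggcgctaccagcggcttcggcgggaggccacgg
Cox5b: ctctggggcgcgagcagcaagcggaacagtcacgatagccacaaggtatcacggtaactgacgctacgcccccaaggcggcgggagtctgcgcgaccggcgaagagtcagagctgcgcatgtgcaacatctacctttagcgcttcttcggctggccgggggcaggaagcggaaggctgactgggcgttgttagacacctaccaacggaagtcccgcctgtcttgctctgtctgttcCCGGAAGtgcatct
Atp5po: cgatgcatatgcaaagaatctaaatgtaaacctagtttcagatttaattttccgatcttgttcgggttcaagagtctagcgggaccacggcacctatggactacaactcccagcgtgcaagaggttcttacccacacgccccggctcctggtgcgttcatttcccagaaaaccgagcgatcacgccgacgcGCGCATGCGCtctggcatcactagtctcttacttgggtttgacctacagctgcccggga
A window of 300 bases, from 250 before to 50 after the start, was held for 47 of the 56 genes, and the one for Cox6c was not among them. CCGGAAG, searched on both strands, was found in 10 of the 47 (21.3%), against 8.75% of all 33469 rat windows and 10.7% of the 21842 of protein-coding genes. Those 10 were Atp5f1a, Atp5pf, Cox4i1, Cox5b, Cox8a, Ndufa6, Ndufs1, Ndufs8, Sdhaf2 and Uqcrc2. The NRF1 site, the 10 letters in capitals in Atp5po, was also searched on both strands and was found in that gene alone (2.13% of 47, against 0.852% of all windows and 1.08% of those of protein-coding genes), with its first base 59 before the start. Neither motif was found in the Ndufb1 or Ndufab1 windows. Only exact matches to these letters were searched, so sites with other letters were not counted. A match describes letters and was not tested as a binding site.

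Values are linear intensities scaled by the authors to 1 level per array. Changes are differences of group means of log2(value + 7.7), with limma's moderated test, two-sided, and Benjamini-Hochberg adjustment over all 6118 probe sets tested. A probe set passed at an adjusted p under 0.05, and a gene is counted by its brightest tested probe set, that of highest mean over the 6 arrays. Of the 102 probe sets, 96 were bright enough to be tested, and all 56 genes kept at least 1. The 6 left out were second or further probe sets of Ndufa4l2, Ndufs8, Ndufb11, Ndufs4, Cox8b and Cox6a2. Intensities of different probe sets are not comparable with each other as amounts of RNA, and changes are read only across arrays. Rankings by brightness and summed intensities describe the readings alone.

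Replicate arrays correlated at 0.962 to 0.969, and only 2 arrays a group limit the precision. P0 replicate 1 stood apart on the control probes: its GAPDH intensities were 1324.2 and 1386.3, where the same 2 probe sets gave 2162.3 to 2775.1 and 2005.7 to 2673.6 elsewhere. Per the chip labels, P0 and P4 replicate 1 shared a batch, P0 and P4 replicate 2 another, and the cultured arrays had 1 each of their own, so batch and group cannot be told apart for culture. The summed intensity of 6 oocyte genes was 1310 to 1360 at P0, 4010 to 4340 at P4 and 3180 to 3280 in culture. That of 10 granulosa genes was 2270 to 2740, 3560 to 4310 and 1600 to 1650. Against P0, Zp1, Zp2 and Zp3 passed as higher in both later groups, while Ddx4, Gja4 and Kit did not pass. Of 6118 tested probe sets, 52 passed as higher at P4 and 213 in culture. The Zp1 call at P4 was lost without P0 replicate 2 or P4 replicate 1. In culture the Zp1 and Zp3 calls were lost without any 1 of the 4 arrays compared. At P4, Inha, Cyp19a1 and Serpine2 passed as higher. The Serpine2 call was lost without any 1 array and the Cyp19a1 call without P4 replicate 1. Amh, Fshr and Inhba changed by 1.21, 0.33 and 0.05 without passing, and Fst, Wt1 and Amhr2 by -0.91, -0.62 and -0.32. Cyp19a1 and Inhbb lay under 20, the highest reading of unspiked control probe sets, on all P0 and cultured arrays. In these bulk samples fewer cells of a type and less RNA per cell cannot be told apart.

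Few of the oxidative phosphorylation genes passed limma's test between birth, day 4 and culture, as was so of all tested probe sets. With 2 arrays a group, not passing does not show that a gene was unchanged. Cox6c, a small nuclear subunit of cytochrome c oxidase, fell in culture by 1 of its 2 probe sets. From P0 to P4, 0 of the 56 genes passed limma's test, where 1.08% of all tested probe sets did. With the chip batch shared by P0 and P4 arrays as a replicate block 1 gene passed, Ndufb1 (5.13% of all probe sets passed). With batch as a random block 2 did, Ndufb1 and Ndufab1 (335 of 6118 probe sets passed, 206 as higher). All of these calls were higher at P4. At an unadjusted p under 0.05 there were 3 (Ndufb1 and Ndufab1 higher, Cox6c lower), or 5.36%, against 13.0% of all probe sets. Between cultured and P0 ovaries Cox6c was the only gene to pass, in a comparison in which 5.43% of all probe sets passed and 1.95% passed as lower. It was again the only gene to pass between cultured and P4 ovaries, where 2.78% of all passed and 0.621% as lower. At an unadjusted p under 0.05 these comparisons gave 4 and 3 of the 56, against 20.8% and 14.0% of all probe sets.

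The size of these changes was small and could be bounded. The 95% interval of the change lay within 2-fold in both directions for 53 of 56 genes (94.6%) from P0 to P4, 51 (91.1%) from P0 to culture and 53 (94.6%) from P4 to culture. Over all tested probe sets the same held for 67.8%, 60.6% and 67.5%. Over all 3635 tested named genes, each by its brightest probe set, it held for 69.2%, 63.0% and 69.9%. The members' intervals were narrower, with a median standard error of 0.20 against 0.26 over all tested probe sets and 0.25 over named genes. Their changes were smaller, with median sizes of 0.15, 0.12 and 0.17 log2 units against 0.24, 0.29 and 0.23 over all tested probe sets. Variances in the fit follow an intensity trend, and the part of brightness in the narrower intervals was not tested. The median signed change of the 56 genes was 0.07 from P0 to P4, -0.04 from P0 to culture and -0.13 from P4 to culture, beside -0.05, -0.08 and -0.04 over all tested probe sets. Both P4 arrays lay above both P0 arrays for 15 of the 56 genes and below both for 5, where 18.6% and 25.7% of all tested probe sets did. Both cultured arrays lay above both P0 arrays for 8 genes and below both for 14 (21.3% and 29.0% of all), and above both P4 arrays for 6 and below both for 20 (19.1% and 24.5% of all). The genes whose intervals reached past 2-fold were Ndufab1, Ndufb1 and Cox6c from P0 to P4, Ndufb1, Ndufb2, Cox6c, Cox6c-ps1 and Sdhaf2 from P0 to culture, and Cox6c, Cox6c-ps1 and Sdhaf2 from P4 to culture.

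**Figure D1:**
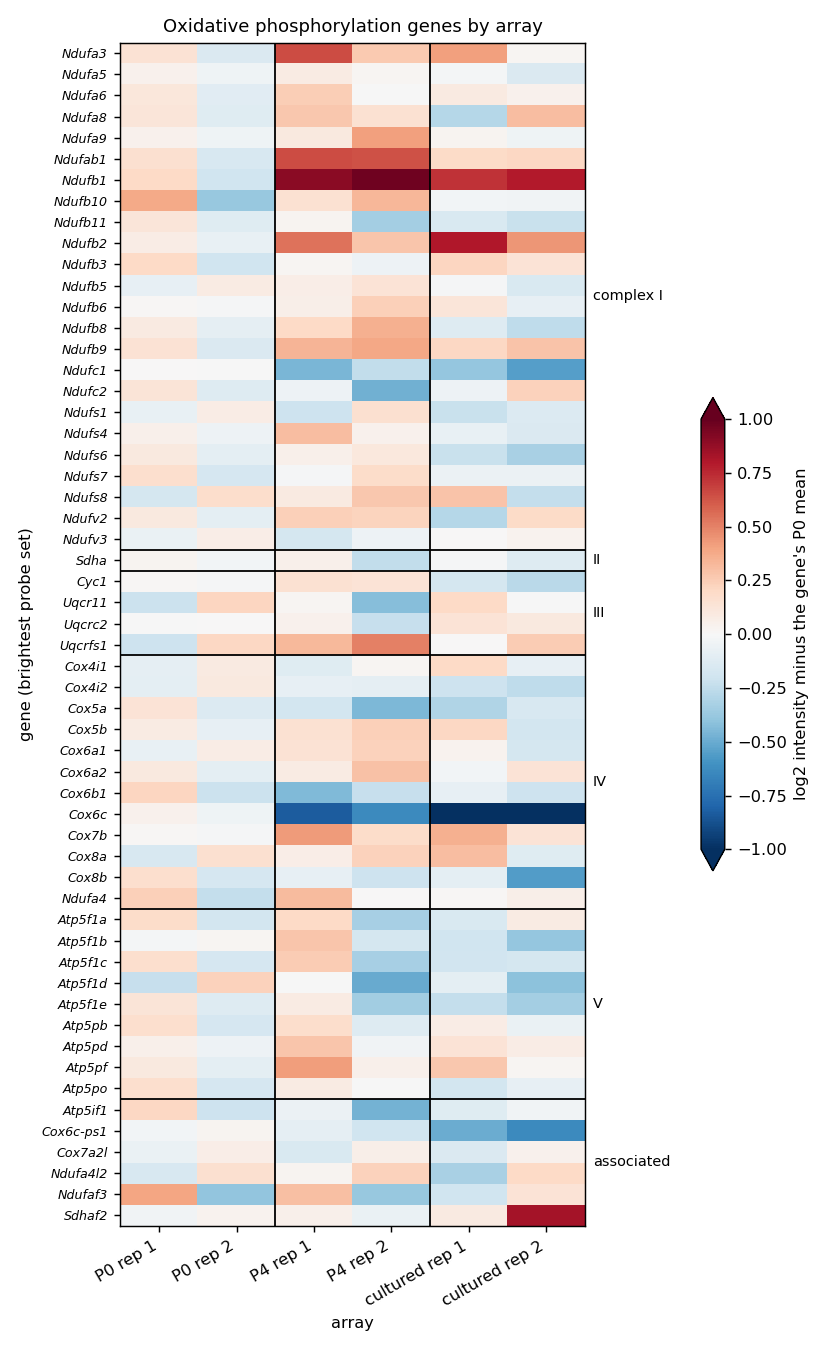
Heat map of the 56 genes (rows, by their brightest probe set, grouped by complex) on the 6 arrays (columns), coloured by log2 intensity minus the gene's mean over the P0 arrays, with colours saturating at 1 log2 unit either way. Most cells are pale; Ndufb1 and Ndufab1 are red on both P4 arrays and Cox6c is dark blue on both cultured arrays.

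**Figure D2:**
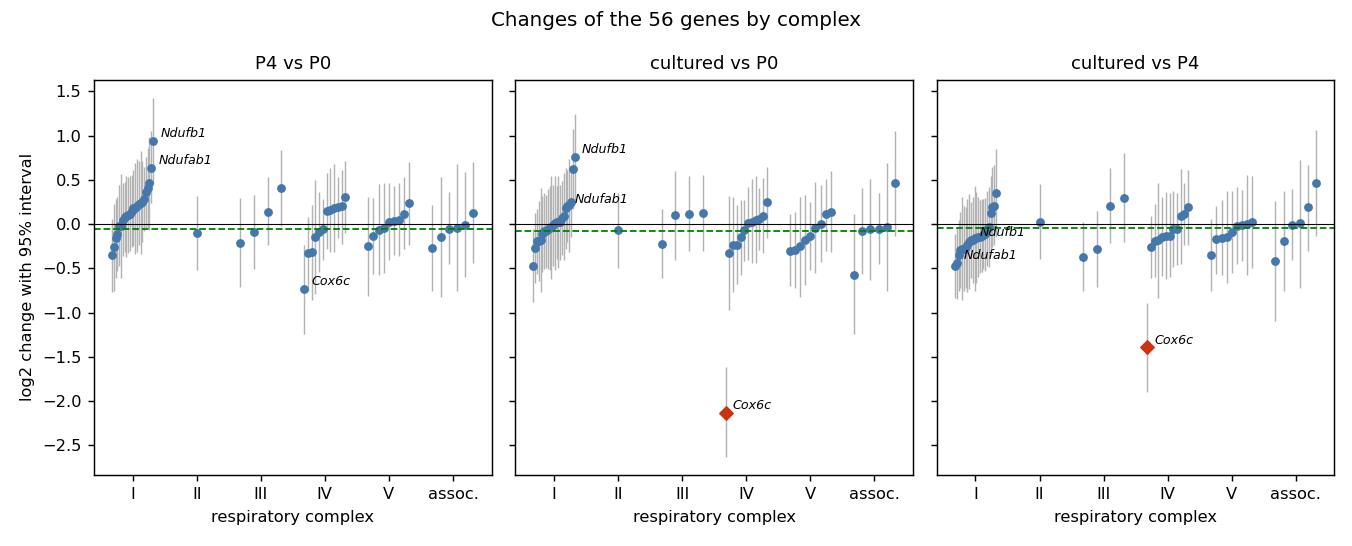
Log2 change of each gene with its 95% interval in the 3 comparisons, arranged by complex and ordered by size within it; red diamonds passed the test, blue points did not, and the dashed green line is the median of all tested probe sets. Cox6c, at -2.13 and -1.39, is the only gene that passed in this fit, which has no block, and it lies below every other gene in both comparisons with culture.

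Complex I, the NADH dehydrogenase and the largest of the complexes, had 24 genes on the array: 4 core subunits of the catalytic arm (Ndufs1, Ndufs7, Ndufs8 and Ndufv2) and 20 accessory subunits. None passed in any comparison without a block. From P0 to P4 Ndufb1 passed with the replicate block, and Ndufb1 and Ndufab1 with batch as a random block. Those fits called 314 and 335 of all 6118 tested probe sets, against 66 without a block. From P0 to P4 the change was above 0 for 18 of 24, with a median of 0.16, beside 43.8% and -0.05 over all tested probe sets. Both P4 arrays exceeded both P0 arrays for 10 of the 24 genes and were below both for 1. Of all tested probe sets, 18.6% and 25.7% showed such separation upward and downward. The median was 0.08 within the first batch (15 of 24 above 0) and 0.23 within the second (20 of 24). From P4 to culture 20 of 24 were below 0, with a median of -0.16, beside 3367 of 6118 and -0.04 over all tested probe sets. Both cultured arrays were above both P4 arrays for 3 genes and below both for 12, where 19.1% and 24.5% of all tested probe sets were. The 2 comparisons share the P4 arrays. Between culture and P0 the median was 0.00, with 12 of 24 above 0 (9 of 24 after quantile normalization).

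Ndufb1, an accessory subunit of the membrane arm, had the largest P4 increase of all 56 genes. Its intensity was 150.7 and 112.1 at P0, 250.2 and 262.1 at P4, and 219.9 and 231.6 in culture. Both later groups lay above both P0 arrays without overlap. From P0 to P4 the change was 1.95-fold in the group means and 0.94 ± 0.22 on the log2 scale (SE, n = 2 a group, 95% interval 0.45 to 1.43), with an adjusted p of 0.0893 in limma. The change was 0.70 within the first batch and 1.17 within the second. With the replicate number as a block, which pairs the P0 and P4 arrays of a batch, Ndufb1 passed (limma adjusted p = 0.0246, in a fit that calls 5.13% of all probe sets and 3.17% as higher). Without each array in turn its change ran from 0.74, without P0 replicate 2, to 1.14, without P0 replicate 1, and it did not pass in any of these 6 fits (limma adjusted p from 0.0887 to 0.353). Culture against P0 gave 0.76 (limma adjusted p = 0.0847) and culture against P4 -0.18.

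Ndufab1 encodes the mitochondrial acyl carrier protein, which serves both complex I and mitochondrial fatty acid synthesis. Its brightest probe set read 656.5 and 526.1 at P0, 926.1 and 917.4 at P4, and 673.5 and 680.2 in culture. A second probe set read 225.1 and 166.3, then 368.3 and 360.2, then 281.4 and 256.2. On both, the P4 arrays were the highest and did not overlap either other group. The P4 changes were 0.64 ± 0.18 and 0.89 ± 0.22 (SE, n = 2 a group, limma adjusted p = 0.146 and 0.101), and within the batches 0.49 and 0.79 for the first, 0.69 and 1.08 for the second. With the replicate block the adjusted p in limma was 0.0541 for the brightest and 0.0246 for the second. The last probe set was dim, between 7.2 and 26.3 on all arrays, and changed by 0.16 ± 0.37. From P4 to culture the 3 probe sets gave -0.44, -0.43 and -0.64, none passing.

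**Figure D3:**
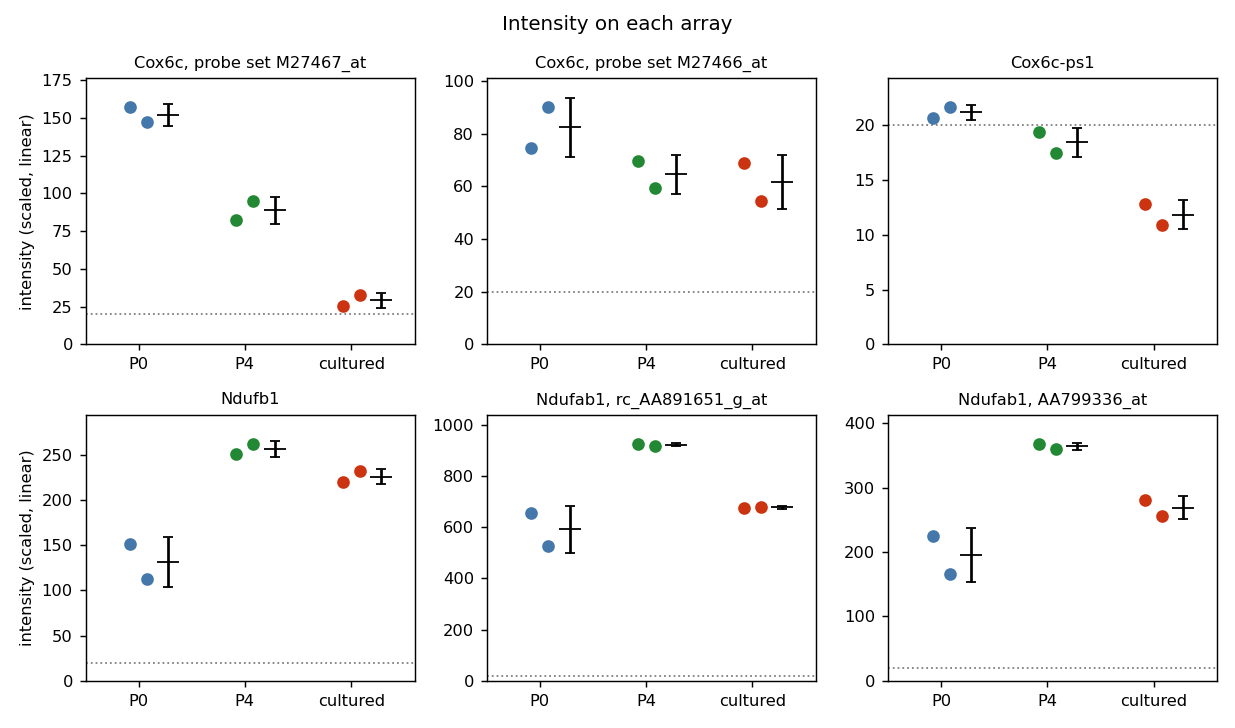
Linear scaled intensity on each array (points, 2 per group) with the group mean and SD (bars) for both Cox6c probe sets, the Cox6c-ps1 probe set, Ndufb1 and 2 Ndufab1 probe sets; each vertical axis starts at 0 and the dotted line marks 20, the highest reading of unspiked control probe sets. Both Cox6c M27467_at readings in culture, 25.5 and 32.7, lie just above that line, while M27466_at stays between 54.2 and 90.1 on all 6 arrays.

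Other accessory subunits of complex I moved less. Ndufb2 read 470.0 and 425.1 at P0, 654.5 and 542.0 at P4, and 783.1 and 611.2 in culture, with both cultured arrays above both P0 arrays (log2 change 0.62, limma adjusted p = 0.116). Ndufc1 had the largest decrease of the complex from P0 to culture: 613.1 and 612.6 at P0, 443.2 and 514.8 at P4, 465.8 and 416.6 in culture (-0.47, limma adjusted p = 0.186). It was below P0 on all 4 later arrays. Its second probe set gave 0.05 from P0 to P4 and -0.36 from P0 to culture. Ndufc2, its neighbour in the membrane arm, had the complex's largest increase from P4 to culture (0.35, limma adjusted p = 0.55), reading 542.4 and 454.6 at P0, 479.3 and 354.2 at P4, and 479.6 and 583.8 in culture.

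Ndufb8, the accessory subunit often blotted as a gauge of assembled complex I, was the brightest of the complex. Its brightest probe set read 1276.2 and 1123.5 at P0, 1378.8 and 1537.0 at P4, and 1092.5 and 1002.8 in culture. P4 was the highest group without overlap, and the change from P4 to culture was -0.47 (limma adjusted p = 0.208). A second probe set read 706.3 and 669.4, then 882.0 and 1084.3, then 674.4 and 582.2 (-0.64 from P4 to culture, limma adjusted p = 0.13). The other two disagreed with these from P0 to P4, at -0.37 and -0.14 against 0.28 and 0.50. One of them read 183.7 on P0 replicate 2 and 83.2 to 101.7 on the other 5 arrays, and the other read 15.5 on cultured replicate 2 and 44.2 to 65.9 elsewhere. All 4 gave values below 0 in both comparisons with culture, with none passing.

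The 4 core subunits of complex I, which carry its iron-sulphur clusters, did not stand out. Ndufv2 read 479.9 and 418.9 at P0, 531.0 and 525.2 at P4, and 367.4 and 513.8 in culture, the last pair spanning the P0 range. Ndufs8 read 467.0 and 600.0, then 563.7 and 638.1, then 645.6 and 446.9. The core subunits' changes ran from -0.02 to 0.23 from P0 to P4, from -0.18 to 0.02 from P0 to culture and from -0.28 to -0.15 from P4 to culture. The remaining complex I genes, Ndufa3, Ndufa5, Ndufa6, Ndufa8, Ndufa9, Ndufb3, Ndufb5, Ndufb6, Ndufb9, Ndufb10, Ndufb11, Ndufc2, Ndufs4, Ndufs6 and Ndufv3, lay between -0.26 and 0.46 from P0 to P4 and between -0.27 and 0.25 from P0 to culture.

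Complex II was represented by Sdha alone, its flavoprotein, which also works in the citric acid cycle. Sdha read 598.6 and 573.7 at P0, 608.8 and 492.4 at P4, and 582.3 and 535.1 in culture. The 3 groups overlapped, and the changes were -0.10, -0.07 and 0.03 in the order P4 against P0, culture against P0 and culture against P4.

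Of complex III, the cytochrome bc1 complex, 4 genes were measured and none passed. Uqcrfs1, the Rieske iron-sulphur protein, was the brightest of them and read 940.6 and 1255.2 at P0, 1363.2 and 1542.1 at P4, and 1091.3 and 1298.4 in culture. Both P4 arrays were the highest, with a change from P0 of 0.41 ± 0.19 (limma adjusted p = 0.411), and its other 2 probe sets gave 0.55 and 0.29. Cyc1, cytochrome c1, read 586.8 and 578.9, then 648.7 and 640.9, then 515.2 and 482.6. Its replicates were close and its 3 groups did not overlap, with P4 highest and culture lowest, but the change from P4 to culture was -0.37 (limma adjusted p = 0.393). Uqcr11, a small subunit, read 559.8 and 753.0 at P0, 657.2 and 480.9 at P4, and 746.8 and 647.7 in culture. Its P0 readings differed as much as its groups did. Uqcrc2, a structural subunit, ranged from 401.8 to 521.3 over the 6 arrays.

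Complex IV, cytochrome c oxidase, held the gene that passed. Cox6c read 157.4 and 147.1 at P0, 82.3 and 95.1 at P4, and 25.5 and 32.7 in culture on probe set M27467_at. The group means were 152 ± 7.28, 88.7 ± 9.05 and 29.1 ± 5.09 (SD, n = 2 each), and none of the groups overlapped. Cultured ovaries were 5.23-fold lower than P0 ovaries (log2 change -2.13, 95% interval -2.63 to -1.62, limma adjusted p = 0.000797) and 3.05-fold lower than P4 ovaries (-1.39, limma adjusted p = 0.00935). The first call held without each array in turn, with a highest adjusted p of 0.0151. The second did not pass without P4 replicate 2 (limma adjusted p = 0.0646) or without cultured replicate 1 (0.0872). From P0 to P4 the difference was 1.72-fold and did not pass (-0.73 ± 0.23, limma adjusted p = 0.178; 0.0562 with the replicate block).

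The other Cox6c probe set, M27466_at, read 74.5 and 90.1 at P0, 69.7 and 59.3 at P4, and 68.7 and 54.2 in culture. P4 and culture overlapped there, and the change from P0 to culture was -0.38 (limma adjusted p = 0.407). The probe sets thus differed by 1.74 log2 units in the same comparison. The Cox6c-ps1 probe set was dim, with 20.7 and 21.7 at P0, 19.4 and 17.5 at P4, and 12.8 and 10.9 in culture, and 23 unspiked control probe sets read up to 20. Its change from P0 to culture was -0.57 (limma adjusted p = 0.333). Because the Cox6c probe sets disagreed, the level of Cox6c itself in culture is uncertain. Whether their probes are shared with pseudogene copies of Cox6c was not tested. Erythroid markers also differed, with summed intensities over 5 genes of 6030 to 6180 at P0, 3360 to 4470 at P4 and 200 to 237 in culture (3 of 5 fell against P0, Hbb and Hbb-b1 also without each array). Meiotic germ cell markers, 3 genes, summed to 319 to 536 at P0, 116 to 121 at P4 and 92.8 to 96.4 in culture, and 2 of 3 (Sycp1 and Sycp3) fell against P0 both at P4 and in culture. The Sycp1 fall at P4 was lost without any 1 array, and in culture without P0 replicate 1 or either cultured array. Over all tested probe sets, 14 of 6118 passed as lower at P4 and 119 in culture, both against P0. The part of erythroid or meiotic germ cells in the Cox6c value was not tested.

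The other 11 genes of complex IV showed no such change. Cox4i1, the ubiquitous form of subunit 4, had the complex's brightest probe set, which read 2251.8 and 2545.6 at P0, 2197.6 and 2421.6 at P4, and 2750.7 and 2264.6 in culture. Its groups overlapped, and its 3 probe sets stayed between -0.24 and 0.11 in all comparisons. Cox7b, a small subunit of the membrane part, had the largest increases of the complex, 0.31 from P0 to P4 and 0.25 from P0 to culture, reading 656.8 and 648.8, then 879.4 and 743.4, then 839.2 and 719.6. All 4 later arrays lay above both P0 arrays. Cox6b1, which lies between the monomers of the dimer, had the next largest P4 decrease after Cox6c and read 1669.1 and 1238.0, then 1057.9 and 1224.3, then 1354.0 and 1242.5. Its change was -0.65 within the first batch and -0.02 within the second.

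Subunits 4, 6a and 8 of complex IV have tissue forms, and both forms of each were on the array. Cox4i2, the lung form, read 200.4 and 230.5 at P0, 202.1 and 201.5 at P4, and 185.3 and 178.6 in culture. Of the heart and muscle forms, Cox6a2 read 99.1 and 85.3, then 97.6 and 114.1, then 90.0 and 101.9, and Cox8b read 38.9 and 29.1, then 31.5 and 28.2, then 31.1 and 20.4. Their ubiquitous counterparts read between 1468.7 and 1951.8 (Cox6a1) and between 1528.8 and 2112.0 (Cox8a) over the 6 arrays. Being from different probe sets, these readings do not compare the amounts of the forms. No form passed, and the largest change among these 5 genes by their brightest probe sets was -0.33, for Cox8b from P0 to culture. Skeletal and heart muscle markers, 15 genes of which 7 were tested, summed to 563 to 628 at P0, 526 to 570 at P4 and 386 to 413 in culture, with 0 of 7 passing.

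Complex V, the ATP synthase, had 5 genes of its catalytic F1 head (Atp5f1a to Atp5f1e) and 4 of its stalk (Atp5pb, Atp5pd, Atp5pf and Atp5po). None of the 9 passed in any comparison. Atp5f1b, the catalytic beta subunit and the brightest of the complex, read 1678.3 and 1730.1 at P0, 2065.1 and 1509.7 at P4, and 1481.5 and 1298.9 in culture. Both cultured arrays were below the others, and the change was -0.30 against P0 and -0.35 against P4 (limma adjusted p = 0.405 and 0.451). Atp5f1a, the alpha subunit of the same head, read 748.7 and 580.9, then 760.2 and 521.5, then 593.2 and 697.1, with overlap of all groups. Atp5f1d, the delta subunit, read 355.2 and 492.1, then 418.0 and 293.0, then 389.7 and 312.9. Its P4 change was 0.23 within the first batch and -0.73 within the second.

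The replicates of complex V differed as a set at P4. Relative to the P0 mean, the median of its 9 genes was 0.13 and -0.13 on the P0 arrays, 0.20 and -0.17 on the P4 arrays, and -0.15 and -0.09 on the cultured arrays. In both fresh groups replicate 1 was higher than replicate 2, and the replicates share their chip batch across the groups. From P4 to culture 8 of 9 genes were below 0, with a median of -0.09, where 3367 of 6118 tested probe sets were below 0. That direction depended on the arrays and the scaling: without P4 replicate 1 the median was 0.13 with 7 of 9 above 0, and after quantile normalization 6 of 9 were below 0. The P4 change of the complex was 0.02 in the median, -0.17 without P4 replicate 1 and 0.20 without P4 replicate 2.

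Atp5pf, coupling factor 6 of the stalk, had probe sets of opposite direction. One read 520.4 and 452.8 at P0, 650.3 and 504.3 at P4, and 585.3 and 491.5 in culture (0.24 from P0 to P4). The other read 589.0 and 576.9, then 547.6 and 395.7, then 510.3 and 503.8 (-0.32). Neither passed (limma adjusted p = 0.705 and 0.573).

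Among the 6 associated genes none passed. Atp5if1, whose protein blocks ATP hydrolysis by the synthase, read 834.7 and 621.8 at P0, 691.1 and 517.3 at P4, and 662.1 and 702.6 in culture on its brightest probe set. Its 4 probe sets were all below 0 from P0 to P4, between -0.47 and -0.19, but spread from -0.39 to 0.15 from P0 to culture. Ndufaf3 read 178.6 and 100, then 166.4 and 101.5, then 115.7 and 148.0, so that its replicates differed more than its groups. A second Ndufaf3 probe set read 111.0 and 98.1, then 149.7 and 134.3, then 135.0 and 163.4 (0.48 from P0 to culture, limma adjusted p = 0.249). Sdhaf2 read between 143.0 and 160.2 on 5 arrays and 273.9 on cultured replicate 2. Cox7a2l stayed between 681.4 and 792.4 on all arrays.

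Ndufa4l2, a gene known to be induced by hypoxia, had 5 probe sets, 4 of them tested. The brightest read 79.7 and 101.2 at P0, 91.9 and 106.7 at P4, and 70.4 and 104.4 in culture. Another read 10.5 to 18.9 on 5 arrays, under the control level of 20, and 77.4 on cultured replicate 2. Its change from P0 to culture was 0.97 ± 0.60 (limma adjusted p = 0.406), 2.09 without cultured replicate 1 (0.0395) and -0.14 without cultured replicate 2. That value therefore rested on 1 array.

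**Figure D4:**
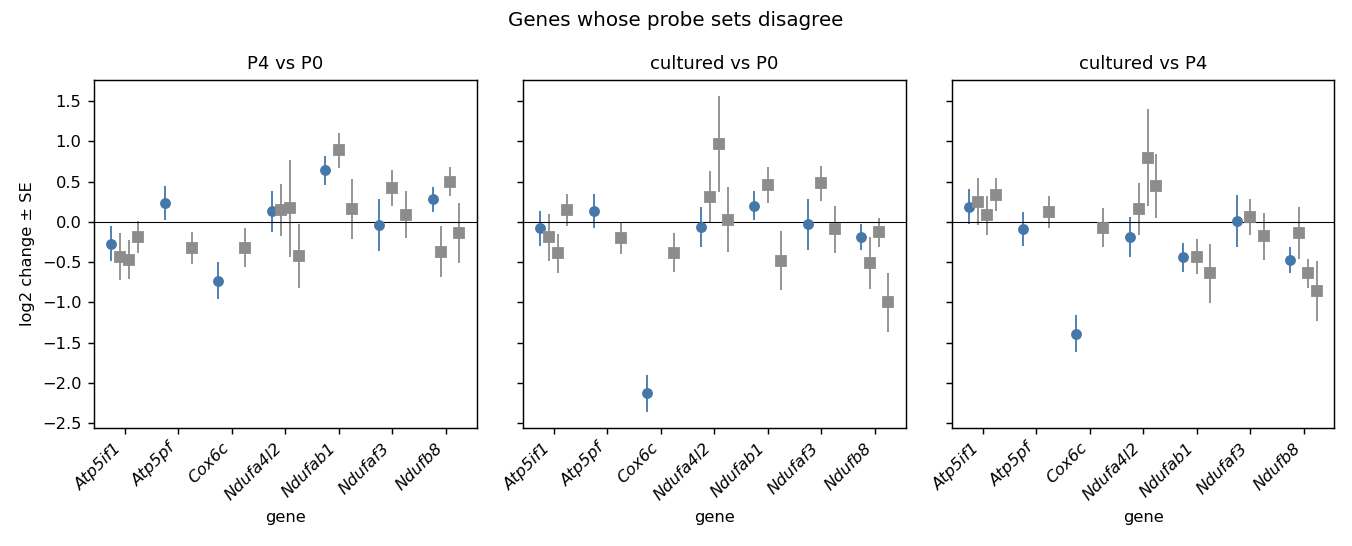
Log2 change with its SE for every tested probe set of the 7 genes whose probe sets differed by more than 0.5 log2 units, or in the call, in at least 1 comparison; blue circles are the brightest probe set and grey squares the others. The widest gap is that of Cox6c from P0 to culture, -2.13 against -0.38.

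In all, 26 genes had more than 1 tested probe set. For 19 of them every pair of probe sets lay within 0.5 log2 units of each other in all 3 comparisons. The 7 that did not were Atp5if1, Atp5pf, Cox6c, Ndufa4l2, Ndufab1, Ndufaf3 and Ndufb8, and only for Cox6c did the call differ between probe sets.

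Replicate differences put these changes in proportion. The median absolute log2 difference between the replicates of a group, over the 56 genes, was 0.21 at P0, 0.20 at P4 and 0.14 in culture, beside 0.27, 0.25 and 0.26 over all tested probe sets. The P4 and P0 arrays of the same batch differed by 0.15 and 0.21 in the same measure, beside 0.28 and 0.28 over all tested probe sets. The typical difference between birth and day 4 was about the size of that between replicates, for these genes and for the array as a whole. The measures are not alike, because replicates of a group came from different chip batches. How the stage difference compares with replicates within a batch therefore cannot be read from them.

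The mitochondrially encoded subunits of complex IV could be read beside the nuclear ones. The array names 3 of them, mt-Co1 (2 probe sets), mt-Co2 and mt-Co3, the catalytic core of the enzyme. On the deposited scale all 4 probe sets were lower on both cultured arrays than on both P0 arrays (29.0% of all tested probe sets were), by 0.42 and 0.64 for mt-Co1, 0.47 for mt-Co2 and 0.43 for mt-Co3 on the log2 scale, but after quantile normalization the same changes were 0.10, -0.22, -0.08 and 0.01. Quantile normalization gives every array the same set of values, so it can also remove a shared fall of very bright probe sets. Whether it did so here was not tested. The second mt-Co1 probe set read 7459.7 and 6433.6 at P0, 5428.4 and 5543.6 at P4, and 4357.9 and 4520.1 in culture. It passed between culture and P0 (limma adjusted p = 0.016), but the call was lost in 6 of 14 alternatives: without P0 replicate 1 (0.0723), cultured replicate 1 (0.121) or cultured replicate 2 (0.112), with no filter on dim probe sets (0.0676), with no variance trend (0.145) and after quantile normalization (0.306). None of the 3 genes passed by its brightest probe set (limma adjusted p between 0.0864 and 0.206).

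**Figure D5:**
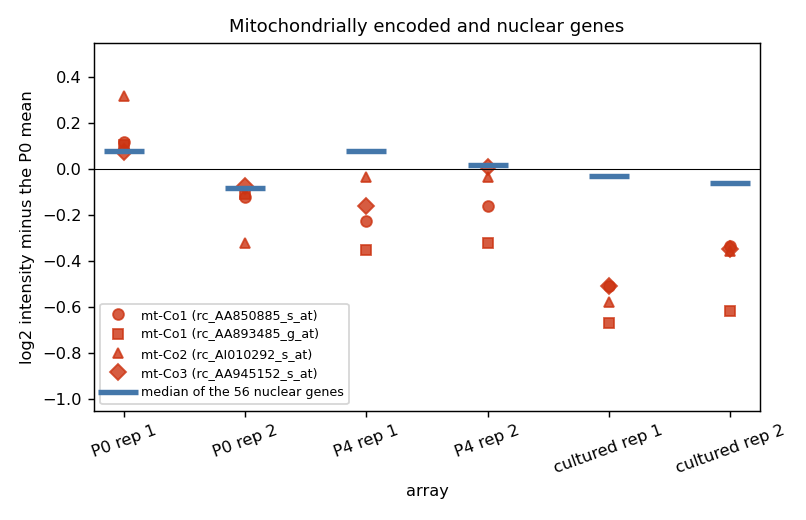
Log2 intensity minus the P0 mean on each array for the 4 probe sets of mt-Co1, mt-Co2 and mt-Co3 (red markers) and the median of the 56 nuclear genes (blue bars), on the deposited scale. The nuclear median stays between -0.08 and 0.08 while the mitochondrial probe sets lie lowest on the cultured arrays. Quantile normalization, which can also remove a shared fall of very bright probe sets, largely removed that difference.

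Other mitochondrial pathways were counted in the same fit. Of 16 tested genes of the citric acid cycle and pyruvate entry, and of 12 for mitochondrial biogenesis, import and assembly, 0 passed in any comparison with limma. Of 12 carriers and pores, Tspo, the outer-membrane translocator protein linked to steroid synthesis, rose from P4 to culture (162.2 and 158.2 to 345.9 and 360.9, log2 change 1.10, limma adjusted p = 0.0258). That call was lost without any 1 of the 4 arrays compared. Of 16 genes of fatty acid oxidation, 2 rose in culture against both fresh groups and 14 did not pass. Over the whole array, 213 of 6118 tested probe sets passed as higher in culture against P0, and 132 against P4.

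Acsl1, which activates long-chain fatty acids, read 46.2 and 38.4 at P0, 99.6 and 81.7 at P4, and 198.4 and 323.2 in culture (2.39 against P0, limma adjusted p = 0.00123, and 1.41 against P4, 0.0231). Acadm, the medium-chain acyl-CoA dehydrogenase that feeds electrons to the chain, read 110.8 and 87.5, then 121.4 and 117.7, then 296.9 and 281.3 (1.48 against P0, limma adjusted p = 0.00496, and 1.22 against P4, 0.0151). Of these only the Acsl1 rise against P0 held without each array. Without cultured replicate 1 or cultured replicate 2 the Acadm rise against P0 was lost, at an adjusted p of at most 0.053. Against P4 the Acadm rise was lost without any 1 of the 4 arrays compared, and the Acsl1 rise without either P4 array or cultured replicate 2.

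Some markers of other cells moved with culture, beside the 213 of 6118 tested probe sets that passed as higher against P0 and 132 against P4. Adipocyte markers, 7 on the array, summed to 744 to 888 at P0, 886 to 896 at P4 and 1740 to 2300 in culture, and 4 of the 5 tested rose against both fresh groups (Cfd, Cidea, Fabp4 and Lpl). Of these, Cidea did not pass without either array of the fresh group compared, or without cultured replicate 2, and Fabp4 did not pass against P4 without either cultured array. The other tested marker, Lep, did not pass and read lower in culture, at 531.5 and 506.4. It read 760.2 and 653.3 at P0 and 632.1 and 707.9 at P4, most of the adipocyte sum in those groups. The defining Ucp1 and Plin1 were at most 15.7 and 8.9 on every array, under the control level. Macrophage and leukocyte markers summed to 553 to 677, 354 to 432 and 1850 to 3580, with Lyz2 alone at 2267.0 and 955.7 in culture. The 3 that did not pass changed in culture by 0.06 (Ptprc), 0.04 (C1qc) and 1.29 (Cd74) against P0. Against P4 their changes were -0.19, 0.83 and 1.45. The other 4 of 7 tested rose in culture against both fresh groups (C1qb, Cd14, Ctss and Lyz2). Without each array in turn, Lyz2 kept its call against P0 and C1qb, Ctss and Lyz2 kept theirs against P4, while the other calls were each lost in 3 of 6 fits. The part of such cells in the values of Acsl1, Acadm, Tspo or the oxidative phosphorylation genes was not tested.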

How the data were processed

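Biotin-labelled RNA of pooled ovaries was hybridised to 6 arrays, 2 for each of 3 groups taken from the labels. The authors deposited linear intensities, scaled to a mean of 125.2 after trimming 2% at each end; the sources used here name no algorithm or software, and the table has no detection calls. Names came from the platform annotation, updated by gene number with RefSeq's GRCr8 gene table: 7018 probe sets had 1 symbol, 308 several and 1473 none, 6994 matched, and all 56 genes described kept their symbol. No position is printed for probe sets. The pseudocount of 7.7 is the 20th percentile of all values. The 59 control probe sets were left out, as were the 2622 of 8740 others whose mean log2 value lay under the 30th percentile, which left 6118.

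One model of 3 group means over the 6 arrays was fitted with limma 3.58.1 in R 4.3.3, with variances following an intensity trend (3 residual and 6.45 prior degrees of freedom), and was tested on simulated data. With 2 arrays a group no exact permutation test can go below 0.33. P0 and P4 arrays of one number share a chip batch per the labels, and their deviations from the group means correlated at 0.33, so the number was also fitted as a block over those 4 arrays. The cultured arrays' numbers pair nothing. Alternatives were quantile normalization, pseudocounts of 1 and 32, other filters, no variance trend, batch as a random block, only the arrays compared, and each array left out. Summaries used Python 3.11.15, with pandas 2.3.3 and matplotlib 3.10.9.

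The members, the gene lists and the tests were chosen with earlier results of these data known. Any member could be named. Values on each array are given for genes that passed, for the brightest gene and the largest increases and decreases of a complex, for tissue forms and for genes whose probe sets disagreed; further genes were named after their values were seen. The control level of 20 and the match of the array's COX1, COX2 and COX3 to mt-Co1, mt-Co2 and mt-Co3 were chosen after seeing the data.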

Additional observations from a re-analysis of the deposited data

How the results depend on the processing

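The median changes of the 56 genes moved by less than the spread of array medians within groups (0.07) under every alternative. Without each array they ranged from 0.01 to 0.12 from P0 to P4, -0.08 to 0.01 from P0 to culture and -0.17 to -0.09 from P4 to culture. That spread is as large as the P0 to P4 median of 0.07 itself. Leaving out 1 of 2 arrays moves a group mean by less than those arrays' SD, so the check says little about stability. Pairing mattered for the count from P0 to P4: it was 0 without a block, 1 with the replicate block and 2 with chip batch as a random block (correlation 0.363). Those calls were Ndufb1, joined by Ndufab1, and both were higher; the block changed no other call among the 56 genes. The paired fits called 314 and 335 of all tested probe sets, against 66 without a block, so more calls were made everywhere. From P4 to culture the count ranged from 0 to 1 without each array. A fit that leaves out an array has 1 array in that group, which is assumed to vary like the others. Calls over all tested probe sets without each array were 15 to 55 from P0 to P4, 90 to 353 from P0 to culture (332 with all arrays) and 86 to 193 from P4 to culture (170 with all arrays). From P0 to P4 they were 23 without the filter, 29 without the variance trend and 23 with only the 4 arrays compared. Quantile normalization moved the median of all probe sets by at most 0.03. The cause of these shifts was not tested. The number of arrays limits what can be called: the median SE over all probe sets was 0.259.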
